A study of Mus musculus with 4 samples.

Results

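The triglyceride assembly enzymes examined here are 10 of the genes that build stored fat from glycerol 3-phosphate and fatty acyl-CoA. They are the glycerol-phosphate acyltransferases Gpam, Gpat3 and Gpat4, the acylglycerol-phosphate acyltransferases Agpat2 and Agpat3, the lipins Lpin1, Lpin2 and Lpin3, and the diacylglycerol acyltransferases Dgat1 and Dgat2. Gpat2, Agpat1, Agpat4 and Agpat5 carry names of the same families, are not among the 10 and were counted in a separate list. Members were found as all probe sets annotated to exactly 1 symbol among the 10. The rule gave 16 of the 28898 probe sets with 1 symbol, and these stood for 9 of the 10 genes, out of 17097 genes in all. No probe set was named Agpat2 in the annotation used, so that gene was not analysed here. A further 3 probe sets are paired with Gpat4 and a second symbol and were not used.

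The samples were mouse brown adipocytes, harvested after 6 days of differentiation. The Blnc1 knockdown group (2 arrays) expressed an shRNA, a short hairpin RNA that lowers its target, against the long noncoding RNA Blnc1 (brown fat lncRNA 1), and the scramble group (2 arrays) expressed a scrambled shRNA. The comparison asks which transcripts differ when Blnc1 is knocked down. The labels call the arrays of a group biological replicates. The source of the cells, the number of shRNA sequences and the way they were delivered are not given in the sources used here, and no probe set is named Blnc1, so the knockdown itself was not checked. Expression is given as the deposited log2 value, where a difference of 1 is a change by a factor of 2, and values of different genes cannot be ranked against each other because each probe set has its own brightness. A fold change is knockdown over scramble.

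Triglyceride is made at the endoplasmic reticulum in a chain of steps. A glycerol-phosphate acyltransferase adds the first fatty acid, an acylglycerol-phosphate acyltransferase the next, a lipin removes the phosphate to leave diacylglycerol, and a diacylglycerol acyltransferase adds the last fatty acid. Brown adipocytes keep the product in many small droplets and burn it for heat, and phosphatidic acid and diacylglycerol made on the way also feed phospholipid synthesis.

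Both groups carried fat cell transcripts, and several measures differed between the groups beside the enzymes. Adipoq, the adiponectin gene, read 11.86 and 11.83 on the knockdown arrays, against 11.81 and 11.75 on the scramble arrays, and Ucp1, the brown fat uncoupling protein gene, read 5.53 and 5.98, against 7.51 and 7.73. The background log2 value was 2.55. Of 9 brown adipocyte markers 6 were lower and 1 was higher in knockdown, of 9 preadipocyte and fibroblast markers 8 were higher, of 11 hepatocyte markers 7 were lower, and of 8 general adipocyte markers 1 was higher and 1 lower. Over all genes 11.4% were called higher and 7.18% lower. The higher preadipocyte and fibroblast markers numbered 5 without knockdown replicate 1, without knockdown replicate 2, without scramble replicate 1 and after quantile normalization, and of the general adipocyte markers 0 were called when any one of these 3 arrays was left out. Summed on the linear scale and given as log2, the hepatocyte markers came to 7.92 and 7.72 in knockdown and to 8.72 and 8.30 in scramble, and the preadipocyte and fibroblast markers to 11.43 and 11.34, against 10.75 and 10.70. The general adipocyte markers came to 14.12 and 14.09 in knockdown, against 14.02 and 14.03 in scramble. For the brown adipocyte markers the sums were 10.34 and 10.44 in knockdown, against 11.17 and 11.25 in scramble. For Actb, the control probe set at the 3' end read higher than that at the 5' end, a gap that widens as RNA breaks, by 1.82 ± 0.08 log2 units in knockdown and 1.07 ± 0.11 in scramble, and for Gapdh by 0.37 ± 0.04 in knockdown and 0.06 ± 0.04 in scramble (SD, n = 2 each). The control probe set in the middle of 18S rRNA read 6.82 ± 0.26 in knockdown and 4.78 ± 0.49 in scramble (SD, n = 2 each). The part of these differences in the results below was not tested, and in such bulk samples a smaller share of fat cells and less transcript per fat cell cannot be told apart.

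The measured members of the assembly pathway did not move as a block. Gpat3 rose 4.41-fold and Dgat2 rose 1.53-fold on the knockdown arrays, Lpin1 was 1.37-fold lower, and the other 6 measured genes did not pass an adjusted p of 0.05 (limma, Benjamini-Hochberg over all genes). The 3 called genes act at different steps, namely the first acylation, the phosphate removal and the last acylation. Of all 17097 genes 18.5% were called, 11.4% as higher and 7.18% as lower, so 3 of 9 is a count to be read against that background. The split of those calls moved with the scaling, with 1941 genes higher and 1228 lower as deposited, 1514 higher and 1564 lower after quantile normalization and 2383 higher and 844 lower after centring on the array medians. Groups did not overlap for 6 of the 9 genes, against 62.6% of all genes. The median log2 fold change of the 9 genes was 0.06, against -0.04 over all genes. Without knockdown replicate 1 or without knockdown replicate 2, Gpat3 alone was called, and without scramble replicate 1 Gpat3 and Dgat2 were.

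**Figure D1:**
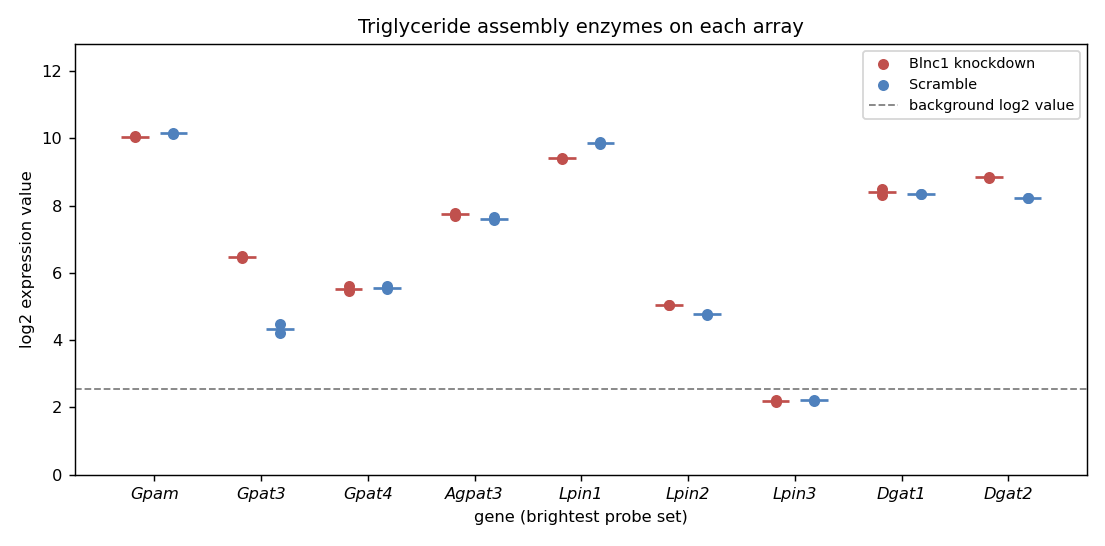
Deposited log2 expression value (vertical axis) of the brightest probe set of each measured enzyme gene, with a point for each of the 2 Blnc1 knockdown arrays (red, left) and the 2 scramble arrays (blue, right), a bar at each group mean and a dashed line at the background log2 value of 2.55. The groups stand far apart for Gpat3 (means 6.48 and 4.34), and Lpin3 lies below the dashed line on every array.

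Gpat3 and Lpin1 are the called genes with an upstream sequence in the RefSeq promoter table (GRCm38.p6), and Gpam is shown beside Gpat3 because it encodes the same activity and was not called. The 250 bases before an annotated start are printed 5′ to 3′, with motif matches in capitals. The motifs searched on both strands were the E-box CACGTG, the GC box GGGCGG, the CCAAT box CCAAT, the TATA box TATAAA and the core of the cAMP response element TGACG, and matches may overlap.
Gpat3, chr5:100845979-100846228, plus strand: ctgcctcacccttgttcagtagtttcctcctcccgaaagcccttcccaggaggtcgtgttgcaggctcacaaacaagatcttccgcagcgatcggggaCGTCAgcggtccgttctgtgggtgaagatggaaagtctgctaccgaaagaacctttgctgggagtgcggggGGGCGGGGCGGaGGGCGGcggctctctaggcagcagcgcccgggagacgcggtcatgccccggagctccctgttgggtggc
Gpam, chr19:55127239-55127488, minus strand: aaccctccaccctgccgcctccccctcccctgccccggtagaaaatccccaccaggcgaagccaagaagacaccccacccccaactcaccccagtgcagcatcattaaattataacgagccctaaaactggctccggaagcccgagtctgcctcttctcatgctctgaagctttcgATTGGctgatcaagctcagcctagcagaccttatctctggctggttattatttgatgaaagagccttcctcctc
Lpin1, chr12:16610967-16611216, minus strand: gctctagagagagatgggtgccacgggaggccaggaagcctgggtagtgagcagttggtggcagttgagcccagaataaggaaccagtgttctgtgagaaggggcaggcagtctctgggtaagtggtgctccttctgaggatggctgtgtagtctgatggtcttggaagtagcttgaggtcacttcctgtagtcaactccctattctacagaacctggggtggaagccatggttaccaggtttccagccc
The Gpat3 window held 3 GC boxes, of which a pair overlap, and 1 cAMP response element core on the opposite strand. The Gpam window, the first of 2 in the table, held 1 CCAAT box on the opposite strand, and the second held 1 GC box and 2 of the cAMP response element cores. The Lpin1 window held none of the 5 motifs. A GC box was found in 32.7% of the 32851 windows of this length in the table a CCAAT box in 33.8%, the cAMP response element core in 17.8% and a TATA box in 12.4%. Of the 10 enzyme genes 7 had a window, 11 windows in all, of which 6 held a GC box, 2 a CCAAT box and 1, the first window of Lpin2, an E-box (6.02% of all windows). Gpat4, Dgat1 and Dgat2 had no entry. A match is a string of letters, not a shown binding site.

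The first step was where the largest difference lay. Gpat3 (Entrez Gene 231510) encodes an acyltransferase of the endoplasmic reticulum that acts on glycerol 3-phosphate and is known to be induced as fat cells differentiate. It read 6.45 and 6.51 on the knockdown arrays, against 4.21 and 4.47 on the scramble arrays. Every knockdown array was well above every scramble array, and the gap between the groups was many times the spread within either. The log2 fold change was 2.14 (SE 0.12, 95% interval 1.85 to 2.43, adjusted p = 0.000328 by limma), a 4.41-fold rise in the mean. Among the 17097 genes it was the 21st largest rise, and its size of change lay at percentile 99.84. A single probe set stands for Gpat3, so no second probe set checks the value. It kept its call in all 11 alternative settings, with log2 fold changes of 2.01 to 2.27.

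Gpam (Entrez Gene 14732) encodes the acyltransferase of the mitochondrial outer membrane, which catalyses the same reaction. Its bright probe set read 10.06 and 10.03 in knockdown, against 10.13 and 10.17 in scramble. The groups did not overlap but lay close together, with a log2 fold change of -0.11 (SE 0.098, 95% interval -0.34 to 0.13, adjusted p = 0.494). The interval leaves room for a small change either way and is far from the rise of Gpat3. The dim probe set of Gpam read 2.53 and 2.64 in knockdown, against 2.30 and 2.28 in scramble, with the scramble mean at background. Its log2 fold change of 0.29 had the opposite sign and did not pass (adjusted p = 0.105 over all probe sets).

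Gpat4 (Entrez Gene 102247) encodes the other acyltransferase of the endoplasmic reticulum. It read 5.60 and 5.45 in knockdown, against 5.60 and 5.51 in scramble. The arrays of the groups overlapped, and the log2 fold change was -0.03 (SE 0.11, 95% interval -0.28 to 0.22, adjusted p = 0.874). The sign turned after centring each array on its median, where the value was 0.03. Its dim probe set was at background in both groups, at 2.13 and 2.08 in knockdown and at 2.30 and 2.35 in scramble.

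Within an array the log2 difference between Gpat3 and Gpam was 2.25 larger in knockdown than in scramble, and that between Gpat3 and Gpat4 was 2.17 larger, with pooled SDs of 0.12 and 0.20 between replicates (n = 2 each). For Gpat4 and Gpam the difference was 0.08, with a pooled SD of 0.082. In the first 2 of these pairs the groups did not overlap. Of 8 pairs planned within the family 7 could be compared, and an exact two-sided permutation test over the 4 arrays cannot go below p = 0.333, which was the value for both Gpat3 pairs (adjusted p = 0.389 over the 7 pairs). The sizes are given here as descriptions for that reason.

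**Figure D2:**
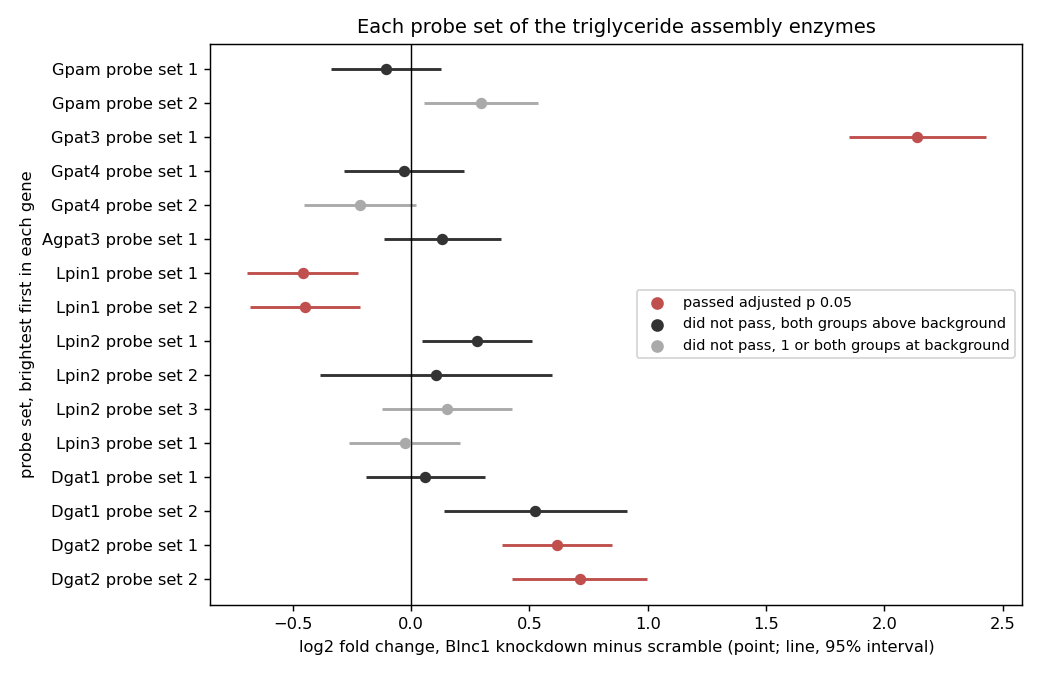
Log2 fold change, Blnc1 knockdown minus scramble (horizontal axis), for each of the 16 probe sets, with its 95% interval from limma, grouped by gene with the brightest probe set first. The 5 red probe sets passed an adjusted p of 0.05 and belong to Gpat3, Lpin1 and Dgat2, both probe sets of Lpin1 and of Dgat2 lie side by side, and grey marks probe sets at background in a group.

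At the next step Agpat3 (Entrez Gene 28169) was the measured member of the list. Its product adds a fatty acid to lysophosphatidic acid or to other lysophospholipids. It read 7.69 and 7.79 in knockdown, against 7.56 and 7.65 in scramble. The lower knockdown array lay just above the higher scramble array, so the groups barely separated. The log2 fold change was 0.13 (SE 0.10, 95% interval -0.12 to 0.38) with an adjusted p of 0.423 by limma. Agpat2, whose human form is mutated in an inherited loss of fat tissue, is the member without a probe set here. Agpat4 and Agpat5, counted in another list, had log2 fold changes of 0.11 and -0.28. Neither passed (adjusted p = 0.502 and 0.115 by limma). Agpat1, counted there too, is given further below.

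Of the lipins Lpin1 alone was called. Lpin1 (Entrez Gene 14245) encodes the main phosphatidate phosphatase of fat cells, whose loss causes lipodystrophy in the fld mouse, and its product also acts in the nucleus as a transcriptional coactivator. The brightest probe set read 9.41 and 9.38 in knockdown, against 9.88 and 9.83 in scramble. Both knockdown arrays were below both scramble arrays. The log2 fold change was -0.46 (SE 0.099, 95% interval -0.69 to -0.23, adjusted p = 0.0215 by limma), the 926th largest fall. The second probe set of Lpin1 read 9.38 on both knockdown arrays, against 9.85 and 9.82 on the scramble arrays, and gave -0.45 (adjusted p = 0.0267 over all 45037 probe sets, of which 14.1% were called). The sizes from the 2 probe sets were thus alike. The adjusted p of the gene was 0.111 without knockdown replicate 1, 0.136 without knockdown replicate 2 and 0.0528 without scramble replicate 1, while the log2 fold change stayed between -0.48 and -0.43.

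Lpin2 (Entrez Gene 64898), a second lipin with the same phosphatase activity, read 5.04 and 5.05 in knockdown, against 4.79 and 4.75 in scramble. The groups did not overlap, and the log2 fold change of 0.28 (SE 0.098, 95% interval 0.05 to 0.51) did not pass, with an adjusted p of 0.0955 by limma. Its 2 dimmer probe sets lay at or near background. The first read 2.49 and 3.04 in knockdown, against 2.86 and 2.45 in scramble, with overlapping groups and a log2 fold change of 0.11 (adjusted p = 0.775). The other read 2.58 and 2.63, against 2.57 and 2.34, with the scramble mean at background, and gave 0.15 (adjusted p = 0.428). Lpin3 (Entrez Gene 64899), the third lipin, was at background in both groups, with 2.16 and 2.22 in knockdown and 2.23 and 2.20 in scramble, so no change is read from it.

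The Lpin1 to Lpin2 log2 difference within an array was 0.74 lower on the knockdown arrays (value -0.74, pooled SD 0.022 between replicates, exact permutation p = 0.333, the smallest possible with 4 arrays). It lay at -0.72 and -0.76 on the knockdown arrays, measured from the scramble mean, and at 0.0055 and -0.0055 on the scramble arrays. Lpin1 passed the test on its own and Lpin2 did not.

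The last step also held a changed and an uncalled gene. Dgat2 (Entrez Gene 67800) encodes an acyltransferase of the endoplasmic reticulum and droplet surface, known for using newly made fatty acids. The brightest probe set read 8.85 and 8.83 in knockdown, against 8.24 and 8.21 in scramble. Both knockdown arrays were above both scramble arrays, and the replicates of a group differed little. The log2 fold change was 0.62 (SE 0.098, 95% interval 0.38 to 0.85, adjusted p = 0.0074 by limma), a 1.53-fold rise. The dimmer probe set read 6.37 and 6.28 in knockdown, against 5.74 and 5.48 in scramble, a log2 fold change of 0.71 or 1.64-fold (adjusted p = 0.0116 over all probe sets). Both probe sets thus rose by similar amounts. Without knockdown replicate 1 the adjusted p of Dgat2 was 0.0576, and without knockdown replicate 2 it was 0.0569, with log2 fold changes of 0.61 and 0.63.

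Dgat1 (Entrez Gene 13350) encodes the unrelated enzyme of the same reaction, known for re-esterifying fatty acids that enter or return to the endoplasmic reticulum. The brightest probe set, whose ID ends in s_at, the form used where several transcripts may be read together, gave 8.48 and 8.32 in knockdown, against 8.34 and 8.33 in scramble. The scramble values lay between the knockdown values, and the log2 fold change was 0.06 (SE 0.11, 95% interval -0.19 to 0.31, adjusted p = 0.740). The dimmer probe set read 3.86 and 3.77, against 3.53 and 3.05, and its log2 fold change of 0.52 did not pass (SE 0.16, adjusted p = 0.0793 over all probe sets). It passed without scramble replicate 1, the array with the higher of the scramble values, at 0.0114, and with the replicate number as a block, at 0.0395. The 2 probe sets of Dgat1 thus gave unlike sizes, and the mean of both gave 0.29 (adjusted p = 0.121). Within an array Dgat2 moved above Dgat1 by 0.56 in knockdown (pooled SD 0.071, exact permutation p = 0.333), or by 0.37 with the mean of the probe sets of each gene.

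**Figure D3:**
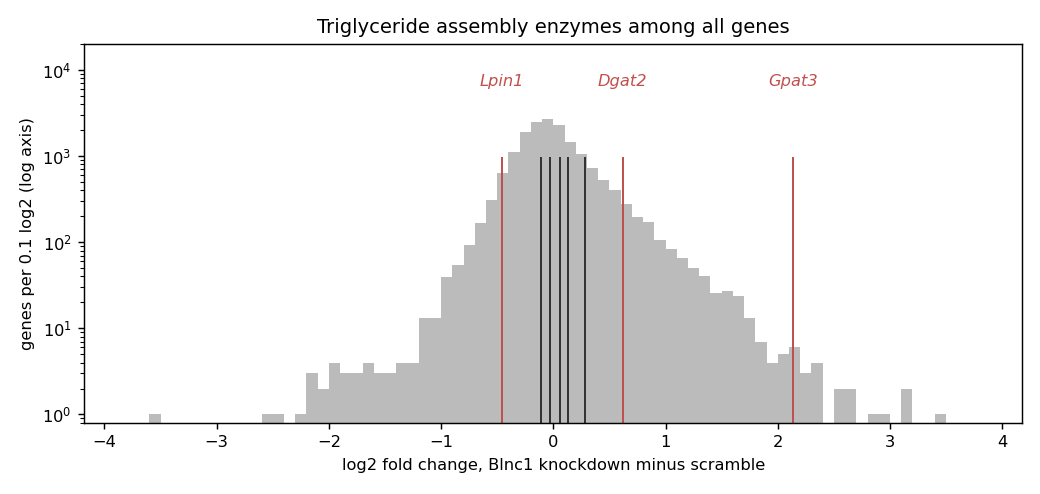
Number of genes (vertical, log axis) in steps of 0.1 of the log2 fold change, Blnc1 knockdown minus scramble (horizontal axis), for all 17097 genes in grey, with a line for each measured enzyme gene, red where it passed an adjusted p of 0.05. Gpat3 lies in the right tail at 2.14, Dgat2 at 0.62 and Lpin1 at -0.46 lie on the shoulders, and the 6 uncalled genes lie between -0.11 and 0.28.

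Genes around the pathway were taken from 6 further lists, and 24 of their genes were called. Of 11 other acyltransferases and phosphatases of glycerolipid synthesis 5 were higher and 0 lower, beside 11.4% and 7.18% of all genes. The median log2 fold change of the list was 0.25, against -0.04 over all genes. Plpp1 rose most, with 7.50 and 7.44 in knockdown, against 5.85 and 5.96 in scramble (log2 fold change 1.56, adjusted p = 0.000421 by limma). It encodes a lipid phosphate phosphatase of the plasma membrane, as does Plpp3, which rose by 0.69 (adjusted p = 0.00761). Mogat1, which makes diacylglycerol from monoacylglycerol, rose by 0.51 (adjusted p = 0.0403), the acyltransferase gene Tmem68 by 0.48 and the lysocardiolipin acyltransferase gene Lclat1 by 0.36. The count of higher genes was 2 without knockdown replicate 1, 1 without knockdown replicate 2, 3 without scramble replicate 1 and 2 after quantile normalization, and 1 gene was lower after quantile normalization and with a trend in eBayes. Agpat1, the close relative of Agpat2, had a log2 fold change of 0.001 (adjusted p = 0.996), with 5.06 and 4.93 in knockdown and 4.92 and 5.07 in scramble.

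Of 11 measured genes that supply glycerol 3-phosphate or acyl-CoA, 4 were higher and 1 lower, beside 11.4% and 7.18% of all genes. The median of the list was -0.06. Acsl5, a long-chain acyl-CoA synthetase, read 8.79 on both knockdown arrays, against 7.64 and 7.68 on the scramble arrays (log2 fold change 1.12, adjusted p = 0.00097). Gpd1, which makes glycerol 3-phosphate from a glycolytic intermediate, read 9.57 and 9.56, against 8.66 and 8.76 (0.85, adjusted p = 0.00263). The synthetase genes Acsl4 and Acsl3 rose by 0.50 and 0.42, and the fatty acid transporter gene Slc27a1 fell by 0.59 (adjusted p = 0.0251). Aqp7, the glycerol channel gene, had a log2 fold change of -0.59 and did not pass (adjusted p = 0.0716). Pck1 was at background in both groups. The higher genes numbered 2 without knockdown replicate 1, without knockdown replicate 2, without scramble replicate 1 and after quantile normalization, and 0 were lower without either knockdown array. After quantile normalization 2 were lower, and with a trend in eBayes 5 were higher and 2 lower.

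Among these 6 lists, fatty acid synthesis held the most called genes for its size. Of 8 measured genes 6 were higher and 0 lower, beside 11.4% and 7.18% of all genes, with a median log2 fold change of 1.14. Acly, which makes cytosolic acetyl-CoA, rose by 1.71 (adjusted p = 0.000338), the malic enzyme gene Me1 by 1.62 (adjusted p = 0.000427) and the acetyl-CoA synthetase gene Acss2 by 1.36 (adjusted p = 0.00097). The higher genes numbered 5 to 6 when single arrays were left out. Of all 17097 genes 5781 had an unadjusted p under 0.05 and 18.5% were called by limma. Of 5 measured genes of droplet assembly and of the lipin phosphatase 0 had such a p and 0 were called. With a trend in eBayes 1 was higher and 1 lower, and without scramble replicate 1 there was 1 lower gene. Among these, Bscl2, the seipin gene, read 7.48 and 7.33 in knockdown, against 7.85 and 7.57 in scramble (log2 fold change -0.30, adjusted p = 0.151), and Ctdnep1, the phosphatase that activates lipins, read 6.12 and 6.10, against 6.34 and 6.21 (-0.16, adjusted p = 0.324).

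Of 23 measured genes of the phospholipid branch 3 were higher and 2 lower, shares close to those over all genes (11.4% higher and 7.18% lower), and the median was 0.06. Pgs1, an early enzyme of cardiolipin synthesis, rose by 0.99 (adjusted p = 0.0051), while Crls1, the last enzyme of that route, fell by 0.81 (adjusted p = 0.00282). Crls1 read 7.71 and 7.67 in knockdown, against 8.52 and 8.49 in scramble, and Pgs1 read 5.59 and 5.22, against 4.46 and 4.38. Etnk1, an ethanolamine kinase, rose by 0.78 and the choline phosphotransferase gene Chpt1 by 0.42, and Pemt, which methylates phosphatidylethanolamine, fell by 0.71. The counts were 2 higher and 1 lower without knockdown replicate 2, 5 higher and 2 lower after median centring, and 6 higher and 4 lower with a trend in eBayes.

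On the breakdown side, 1 of 9 genes was higher and 2 were lower, with a median of -0.14. Over all genes the shares were 11.4% higher and 7.18% lower. G0s2, an inhibitor of adipose triglyceride lipase, read 10.39 and 10.41 in knockdown, against 9.77 and 9.79 in scramble (log2 fold change 0.62, adjusted p = 0.00731). Pnpla2, the gene of that lipase, fell by 0.47 (adjusted p = 0.0255) from a probe set near background, at 2.99 and 2.88 in knockdown and at 3.47 and 3.35 in scramble. Hilpda, another inhibitor of the lipase, fell by 0.43 (adjusted p = 0.0284). No gene of the list was called without knockdown replicate 1 or without knockdown replicate 2. There was 1 lower gene without scramble replicate 1 and without scramble replicate 2, and with a trend in eBayes 2 were higher and 4 lower.

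**Figure D4:**
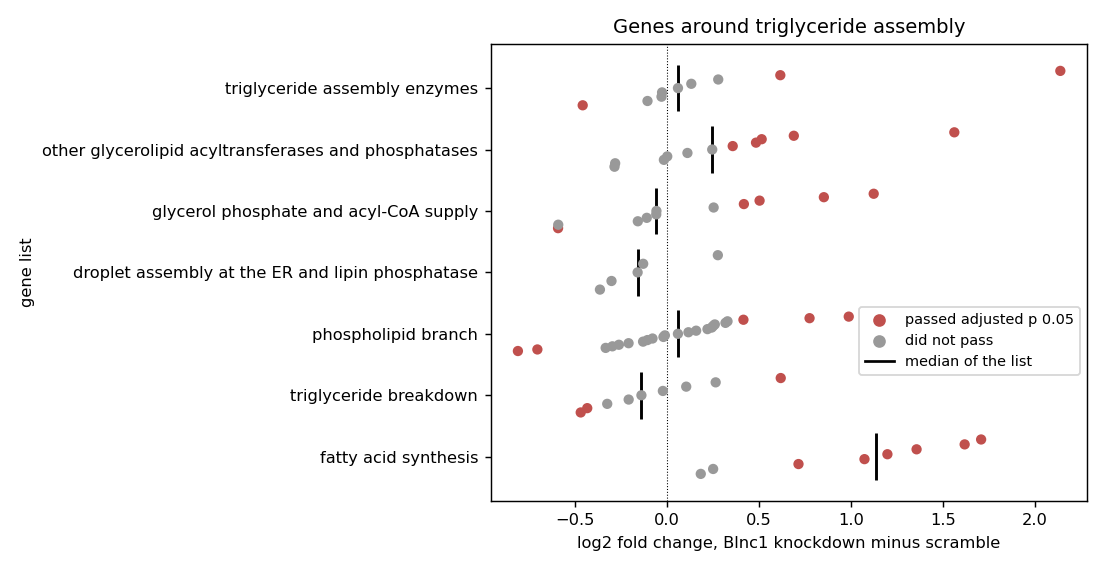
Log2 fold change, Blnc1 knockdown minus scramble (horizontal axis), of each measured gene in the triglyceride assembly enzymes and in 6 lists around them (rows), red where the gene passed an adjusted p of 0.05, with a black bar at the median of each list. The medians run from -0.16 for droplet assembly to 1.14 for fatty acid synthesis, and the enzymes' own median is 0.06.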

How the data were processed

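Per the labels' protocols, 250 ng of total RNA per sample was labelled from the 3' end for 4 Affymetrix mouse arrays. The values are log2 expression values per probe set deposited by the authors, and the submitters' processing notes name affy, limma and RMA without further detail. The log2 scale was inferred from the range of the values. The number of arrays limits the precision. Replicates correlated across probe sets at r = 0.996 in knockdown and 0.994 in scramble, and groups at 0.982 to 0.984.

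The 45037 non-control probe sets were fitted in R 4.3.3 with limma 3.58.1 (lmFit, eBayes, group as the only term, two-sided). A gene was its brightest probe set with exactly 1 symbol, adjusted by Benjamini-Hochberg over 17097 genes, threshold 0.05. Symbols came from the platform annotation, and 28689 of 28898 had an Entrez ID in the RefSeq table. The background value is the highest antigenomic control with 3 to 24 G or C bases, and group means not above it are called at background. The alternatives were quantile normalization, median centring, eBayes with a trend, robust eBayes, a filter dropping the 40 percent of genes with the lowest means, the mean of a gene's probe sets, the replicate block and leaving out each array. The fit was run on simulated data with independent noise and added changes of known size. These data held no difference in RNA quality or scaling between groups, so they cannot show how such a difference acts on the calls. Text names all members, up to 3 called genes of each pathway list by size and all where 5 or fewer were called. From a marker list up to 3 genes with the highest means could be named, and Adipoq is among these. Bscl2, Ctdnep1, Gpat2, Agpat1, Agpat4, Agpat5, Aqp7, Pck1 and Ucp1 fall outside these rules and were picked with their values known. The members and lists were chosen with earlier results of these data known. Figures used matplotlib 3.10.9.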

Additional observations from a re-analysis of the deposited data

How the results depend on the processing

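Gpat3, Dgat2 and Lpin1 were the 3 called enzyme genes under each of 7 alternatives that kept all arrays. With single arrays left out, 1 to 3 enzyme genes, 1 to 5 of their probe sets, 1050 to 2841 genes of all and 11 to 21 of the pathway genes were called, and a lone array was assumed to vary like the other group. With a trend in eBayes 39 pathway genes were called in place of 24. Signs turned for uncalled values only. After quantile normalization Lpin3 was 0.045, after median centring Gpat4 was 0.034 and Lpin3 0.037, and with the mean of all probe sets Gpam was 0.094. With single arrays left out, Lpin3 ran from -0.057 to 0.0025, Dgat1 from -0.021 to 0.14, Gpat4 from -0.10 to 0.042 and the second probe set of Lpin2 from -0.17 to 0.38. The pair differences after quantile normalization were 2.07 for Gpat3 and Gpam, -0.15 for Gpat4 and Gpam, -0.64 for Lpin1 and Lpin2, -0.53 for Lpin1 and Lpin3 and 0.12 for Lpin2 and Lpin3. With the mean of all probe sets they were 2.05 for Gpat3 and Gpam, -0.22 for Gpat4 and Gpam, -0.63 for Lpin1 and Lpin2, 0.21 for Lpin2 and Lpin3 and 0.37 for Dgat2 and Dgat1. Lpin3 was at background in these pairs. The cause of these shifts was not tested. With the replicate number as a block, 3 enzyme genes and 6 of their probe sets were called, the dimmer one of Dgat1 being added. The replicate 1 deviations of the groups correlated at r = 0.0201 across 12423 genes, so the numbers were not taken as pairs. Lpin3 has no value with the dimmest genes left out. Values at or near background limit what can be said of Lpin2's dimmer probe sets and of Pnpla2.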
